A study of Oryctolagus cuniculus with 4 samples.

Results

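Of 9 genes named here for resting fibroblasts of the reticular dermis, 5 had a row in the table of 13913 genes and are described: DPT, ABCA8, MFAP5, CD34 and SCARA5. The other 4 (PI16, FBLN1, CLEC3B and GSN) were not analysed here. DPT and ABCA8 were picked on their measured rise in the very contrast described below, so their differences are given as a description with no test. The remaining genes were chosen by name, as genes known from resting dermal fibroblasts. The libraries were droplet-based single-cell RNA-seq libraries of rabbit ear hypertrophic scar (HS), from the ventral epidermis and dermis of wild-type female rabbits, with no strain or age given in the labels. Scars were raised by excising round wounds on the ventral ear down to the cartilage, so all 4 libraries came from wounded, scarred skin and none from normal skin. The HS group (2 libraries) received no treatment, and the drug-loaded MNs group (2 libraries) received microneedles carrying a prodrug of a 5-fluorouracil derivative, applied weekly for 3 weeks and followed by harvest 1 week after the last patch. The study calls its libraries biologically independent, without saying whether each came from its own rabbit, so p-values measure only the spread between these libraries. Needles without drug were not among the groups.

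The dermis holds a loose papillary layer under the epidermis and a dense reticular layer below it, each with its own fibroblasts. A further population around vessels and in the deep dermis keeps a resting, matrix-supporting state, and it is commonly recognised by genes such as DPT, PI16, CD34 and MFAP5. In scars, part of the fibroblasts take on a contractile, collagen-depositing state instead. DPT (dermatopontin) is a small matrix protein that binds decorin and takes part in collagen fibril assembly. ABCA8 is a membrane transporter of the ABC family involved in lipid efflux. MFAP5 is a microfibril-associated glycoprotein that binds fibrillin. CD34 is a cell surface sialomucin of fibroblasts, endothelial cells and blood progenitors. SCARA5 is a scavenger receptor that takes up ferritin.

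Values are relative expression, where 1 unit is a share of 1 in 1000000 of what a library held, with 1 value per gene and library and none per cell. Fewer cells of a type and less RNA per cell can therefore not be told apart anywhere below. Between 11844 and 12059 genes were above 0 in a library, and the depth was unknown. Mitochondrially encoded genes took 2.75% to 2.80% of the total in HS and 4.37% to 4.58% in drug-loaded MNs. In the summed level of cartilage genes the 2 HS libraries lay on opposite sides of both drug-loaded MNs libraries, HS replicate 1 above and HS replicate 2 below. The 5 chondrocyte markers in the table summed to 1134 units in HS replicate 1, 39.2 in HS replicate 2, and 468 and 352 units in the drug-loaded MNs libraries. Values without HS replicate 1, which leave HS replicate 2 as the only HS library, are therefore given beside the fibroblast genes and lists below. For DPT, ABCA8, MFAP5, CD34 and the fibroblast lists, values without HS replicate 2 are given as well.

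All 5 genes stood higher in both drug-loaded MNs libraries than in both HS libraries. The ratio of the group means was 4.95 for ABCA8, 2.60 for MFAP5, 2.55 for DPT and 1.15 for CD34, while SCARA5 was near 0 throughout. DPT and ABCA8 were picked for their rise, so their order carries no weight. MFAP5 and CD34, tested and not picked, kept this order, but the lowest drug-loaded MNs value of CD34 was only 1.02 times the highest HS value. Both drug-loaded MNs libraries lay above both HS libraries in 26.6% of the 9348 genes tested, so such an order is not rare in this table, and 64.6% had a log2 fold change above 0. Of the 2 tested genes that were not picked for their rise, 0 passed an adjusted p of 0.05 in limma, where 0.0428% of all genes did. MFAP5 had an unadjusted p below 0.05 and was higher, as 7.26% of all tested genes were. Log2 fold changes of drug-loaded MNs over HS (log2FC) had a median of 0.12 over all tested genes, and each value below is to be read against it. The 2 tested genes that were not picked had a median of 0.76, with both higher.

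**Figure D1:**
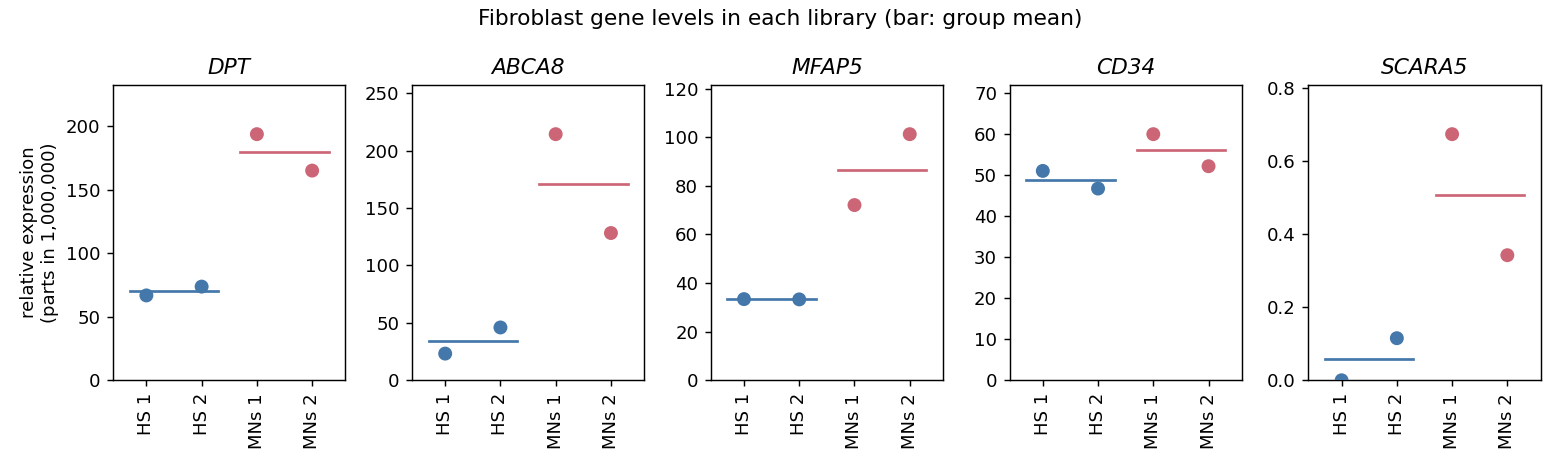
Relative expression (parts in 1,000,000, linear axes starting at 0, own scale per panel) of the 5 genes in each library, with bars at the group means. ABCA8 stood at 23.2 and 46.0 units in HS against 214 and 128 with drug-loaded MNs, whereas the CD34 points of both groups lay between 46.8 and 60.04 units.

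DPT stood at 66.9 and 73.8 units in HS against 194 and 165 units with drug-loaded MNs. The libraries of each group lay close together and the groups did not overlap. The lowest drug-loaded MNs value was 2.24 times the highest HS value. HS averaged 70.3 ± 4.91 units and drug-loaded MNs 180 ± 20.3 (SD, n = 2 libraries each), which gave a log2FC of 1.34 (SE 0.22). In log2 terms the 2 HS libraries were 0.14 apart and the 2 drug-loaded MNs libraries 0.23 apart. This fold change ranked 77th among the 9348 genes, a rank that was part of why DPT was picked. The log2FC of DPT was 1.27 when HS replicate 1 was left out and 1.41 when HS replicate 2 was.

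ABCA8 stood at 23.2 and 46.0 units in HS against 214 and 128 units with drug-loaded MNs. Within each group 1 library had over 1.5 times the value of the other, but the groups again did not overlap, and the lowest drug-loaded MNs value was 2.79 times the highest HS value. The means were 34.6 ± 16.1 and 171 ± 60.9 units (SD, n = 2 libraries each), which gave a log2FC of 2.31 (SE 0.38). The replicates were 0.96 apart on the log2 scale in HS and 0.74 in drug-loaded MNs, so this gene was the most variable of the 4 tested ones. The lowest value belonged to HS replicate 1, and without that library the log2FC was 1.83. Without HS replicate 2 it was 2.78.

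MFAP5 was at 33.4 and 33.3 units in the HS libraries and at 72.1 and 101 units in the drug-loaded MNs libraries. The HS values were nearly equal, the drug-loaded MNs values were further apart, and every drug-loaded MNs value was more than 2 times every HS value. The means were 33.3 ± 0.0783 and 86.7 ± 20.6 units (SD, n = 2 libraries each), a log2FC of 1.33 (SE 0.25, 95% interval 0.75 to 1.92, limma adjusted p 0.264). Without HS replicate 1 the log2FC was 1.33 as well, and the same without HS replicate 2.

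CD34 stood at 51.1 and 46.8 units in HS against 60.04 and 52.2 units with drug-loaded MNs. The groups were barely apart, the lowest drug-loaded MNs value being 1.02 times the highest HS value. The means were 48.9 ± 3.04 and 56.1 ± 5.53 units (SD, n = 2 libraries each), a log2FC of 0.19 (SE 0.23, limma adjusted p 0.879). Its 95% interval ran from -0.33 to 0.72, which includes no change, and its fold change lay 0.072 above the median of all genes. Leaving out HS replicate 1 gave CD34 a log2FC of 0.25, and the median of all genes was then 0.043. Leaving out HS replicate 2 gave it 0.13, below the median of all genes, which was then 0.19.

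SCARA5 was listed at 0 in HS replicate 1 and at 0.115 units in HS replicate 2, and it stood at 0.674 and 0.342 units in the drug-loaded MNs libraries. At such levels it did not reach the minimum mean of 1 unit, so it was not tested and no fold change is given. When low genes were kept, its limma adjusted p was 0.504.

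**Figure D2:**
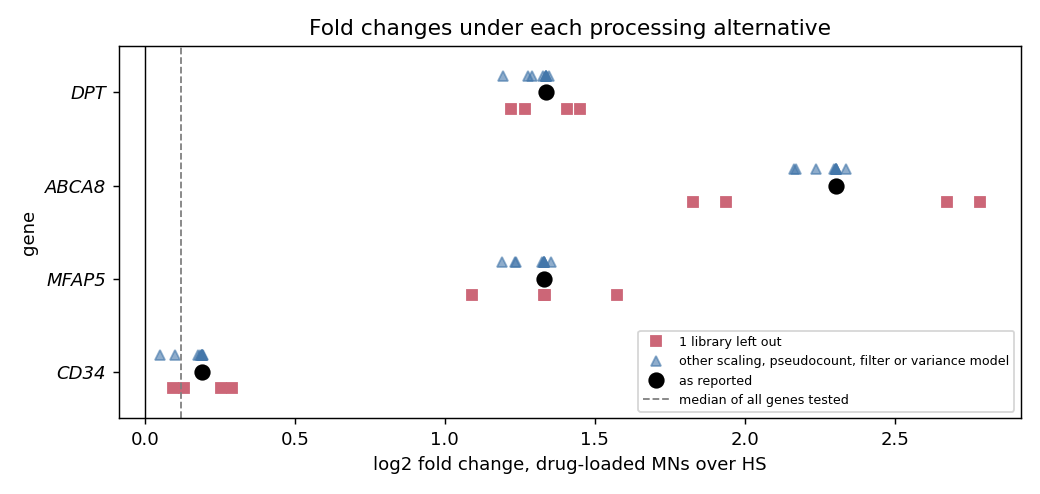
Log2 fold change of drug-loaded MNs over HS (x axis) for the 4 tested genes (y axis) as reported and under every processing alternative, with the median of all genes as a dashed line. ABCA8 ranged from 1.83 to 2.78, DPT from 1.19 to 1.45, MFAP5 from 1.09 to 1.57 and CD34 from 0.051 to 0.29.

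General fibroblast genes served as a yardstick for these values. Of 12 genes fixed as a reference for fibroblasts, 8 were tested, and all 8 were higher in drug-loaded MNs without overlap of the groups, against 26.6% of all genes. Their median log2FC was 0.89 (0.87 without HS replicate 1 and 1.02 without HS replicate 2). In limma 0 of the 8 passed when adjusted over every gene tested. An unadjusted p below 0.05 was reached by 7, against 7.26% of all genes that did so and were higher. COL3A1, the chain of type III collagen, stood at 5717 and 4657 units in HS against 14786 and 13577 with drug-loaded MNs, a log2FC of 1.46 (limma adjusted p 0.264). COL1A1, a chain of type I collagen, had a log2FC of 1.39, and SPARC, a collagen-binding matricellular protein, one of 1.29, with limma adjusted p values of 0.316 and 0.314. Without HS replicate 1 the log2FC was 1.60 for COL3A1, 0.96 for COL1A1 and 0.89 for SPARC. The median of the reference genes thus lay between the fold changes of CD34 and DPT.

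To place the genes against this yardstick, the mean log2 level of the 8 reference genes was subtracted in each library. The mean itself was 10.23 and 10.37 in HS against 11.18 and 11.32 with drug-loaded MNs, on the log2 scale. Relative to it, DPT stood at -4.15 and -4.14 in HS against -3.58 and -3.94 with drug-loaded MNs. The difference between groups was 0.38 log2 units with a pooled SD of 0.18, while the reference mean itself was 0.95 higher in drug-loaded MNs. MFAP5 went from -5.13 and -5.27 to -4.99 and -4.64, a difference of 0.38 with a pooled SD of 0.19. ABCA8 went from -5.63 and -4.81 to -3.43 and -4.30, a difference of 1.35 with a pooled SD of 0.60. For these 3 genes the groups did not overlap on this scale either, although the nearest MFAP5 values, -5.13 and -4.99, were close. No share over all genes is given on this scale, so this carries no weight, and DPT and ABCA8 were picked for their rise. The DPT difference was 0.20 without drug-loaded MNs replicate 1, and the MFAP5 difference was 0.20 without drug-loaded MNs replicate 2.

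CD34 was lower with drug-loaded MNs on this scale. Its own level was not lower, with a log2FC of 0.19, while the subtracted reference mean was 0.95 higher in drug-loaded MNs. It stood at -4.53 and -4.79 relative to the reference genes in HS against -5.25 and -5.59 with drug-loaded MNs, a difference of -0.76 with a pooled SD of 0.21. The groups did not overlap, and again no share over all genes is given on this scale. With 2 libraries against 2, no exact permutation test can reach the threshold of 0.05, and none was run on these values.

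**Figure D3:**
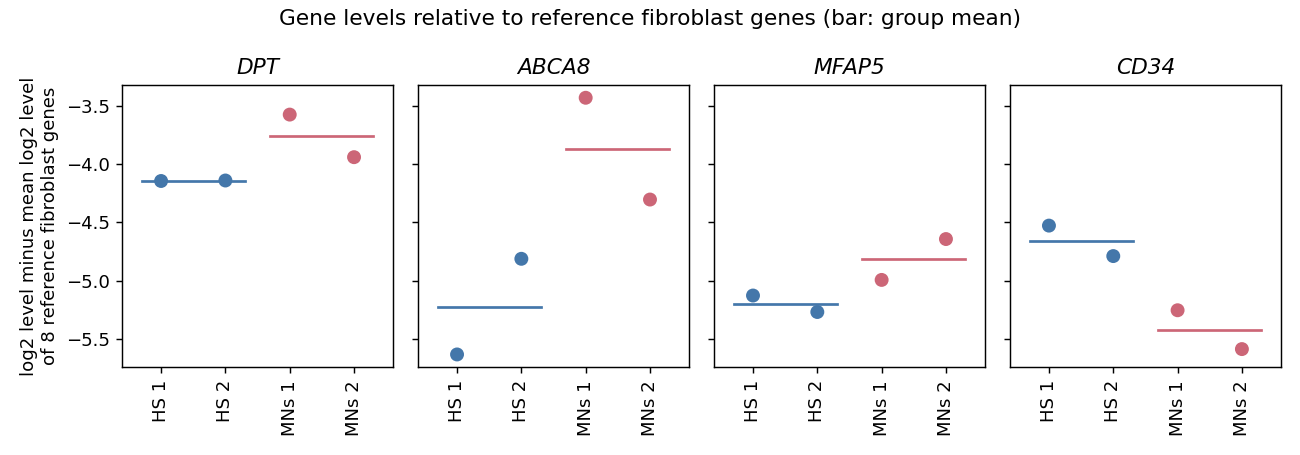
Log2 level of each gene minus the mean log2 level of 8 reference fibroblast genes (y axis) in each library (x axis), with bars at the group means. ABCA8 was 1.35 higher in drug-loaded MNs on this scale and CD34 was 0.76 lower.

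CD34 is also expressed by blood vessel endothelium, and endothelial markers were therefore read beside it. Of 13 such markers, 8 were in the table and all were tested. Of these, 4 were higher and 4 lower in drug-loaded MNs, 0 passed in limma (1 had an unadjusted p below 0.05), and their median log2FC was 0.037, which turned to -0.16 with quantile normalization and to -0.093 when scaled by median ratios. It stood at -0.0045 when HS replicate 1 was dropped, at 0.26 when HS replicate 2 was and at -0.075 when drug-loaded MNs replicate 2 was. Their summed level was 238 to 240 units in HS and 188 to 244 units in drug-loaded MNs, and none of the 8 was at 0. PECAM1 stood at 19.5 and 29.0 units in HS against 29.4 and 41.6 with drug-loaded MNs, and CDH5, the endothelial cadherin, at 2.76 and 4.30 against 6.42 and 8.58. Of the 4 markers whose groups did not overlap, these 2 were higher, and VWF and TIE1 were lower. The nearest values of the groups were almost equal for PECAM1 (29.0 and 29.4 units) and for TIE1 (5.35 and 5.32 units). Their log2FC was 0.54 and -0.20 (limma adjusted p 0.716 and 0.90). VWF (von Willebrand factor) stood at 149 and 128 units in HS against 83.1 and 114 with drug-loaded MNs, a log2FC of -0.50 (limma adjusted p 0.673, and -0.27 without drug-loaded MNs replicate 1), and TIE1, an endothelial receptor kinase, at 5.35 and 6.70 against 4.89 and 5.32. VWF and TIE1 were named after their values were seen. The log2 ratio of CD34 to PECAM1 overlapped between the groups, at 1.39 and 0.69 in HS against 1.03 and 0.33 with drug-loaded MNs. That of CD34 to CDH5 was lower without overlap, at 4.21 and 3.44 in HS against 3.22 and 2.61 with drug-loaded MNs, a difference of -0.91 with a pooled SD of 0.49. Which cells carried the CD34 signal was not tested.

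Other genes of the resting reticular and adventitial state were mostly higher with drug-loaded MNs, though none passed in the limma fit without covariates. Of 43 such genes, 25 were in the table and 24 were tested. In drug-loaded MNs 20 were higher and 4 lower, with a median log2FC of 0.74 (0.77 without HS replicate 1 and 0.69 without HS replicate 2). Of the 24, 17 (70.8%) were higher without overlap, against 26.6% of all genes. PCOLCE2 counted as higher on the log2 scale, although its mean units were 0.86 times the HS mean. In limma 0 of the 24 passed when adjusted over every gene tested. An unadjusted p below 0.05 was reached by 14, all of them higher, against 7.26% of all genes. SFRP2, a secreted modulator of Wnt signals, stood at 20.9 and 76.9 units in HS against 153 and 276 with drug-loaded MNs, a log2FC of 2.32 (SE 0.56, limma adjusted p 0.316). Its HS libraries were far apart, the lower one being HS replicate 1, without which the log2FC was 1.40. Leaving out 1 library at a time gave SFRP2 a log2FC of 1.40 to 3.23. IGF1, a growth factor made by fibroblasts, went from 15.5 and 23.0 to 52.9 and 49.7 units, a log2FC of 1.40 (limma adjusted p 0.264). DPP4, a surface peptidase of fascial and adventitial fibroblasts, went from 11.8 and 12.8 to 38.5 and 25.0 units, a log2FC of 1.27 (limma adjusted p 0.314). The values of IGF1 and DPP4 were 1.13 and 1.21 when HS replicate 1 was left out, and that of DPP4 was 0.97 without drug-loaded MNs replicate 1. The lowest fold change of the list belonged to VIT, a matrix protein, at -0.82 with overlapping groups, or -0.44 in the absence of HS replicate 1 and -0.28 in that of drug-loaded MNs replicate 2.

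Papillary and activated fibroblast genes lay on the same side. Of 18 papillary fibroblast genes, 11 were tested, 10 were higher, and 8 of the 11 (72.7%) were higher without overlap, against 26.6% of all genes. The median log2FC was 0.58 (0.45 without HS replicate 1 and 0.35 without HS replicate 2). In limma 0 passed, and 3 were higher at an unadjusted p below 0.05, against 7.26% of all genes. COL6A5, a collagen VI chain of the upper dermis, stood at 4.35 and 27.2 units in HS against 44.1 and 27.5 with drug-loaded MNs, so the nearest values of the groups were almost equal. Its log2FC of 1.54 was 0.35 without HS replicate 1 and 2.74 without HS replicate 2. ENTPD1, an ectonucleotidase, and COL23A1, a membrane collagen, each had a log2FC of 0.68, with limma adjusted p values of 0.687 and 0.473. Without HS replicate 1 these were 0.22 and 0.58 log2 units, and ENTPD1 stood at 1.15 without HS replicate 2.

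Of 25 activated fibroblast genes, 13 were tested and all 13 were higher, but not all of them without HS replicate 2. COL11A1 stood at 594 and 56.9 units in HS against 415 and 316 with drug-loaded MNs. FN1 stood at 505 and 180 units against 488 and 293. In both, HS replicate 1 lay above the drug-loaded MNs libraries and HS replicate 2 below, as in the cartilage sum. The median log2FC of the 13 was 0.86 (1.0001 without HS replicate 1 and 0.66 without HS replicate 2). Among the 13, 8 (61.5%) were higher without overlap, against 26.6% of all genes. In limma 0 passed, and 7 were higher at an unadjusted p below 0.05, against 7.26% of all genes. CTHRC1, a secreted protein of matrix-depositing fibroblasts, stood at 155 and 187 units in HS against 419 and 388 with drug-loaded MNs, a log2FC of 1.24 (SE 0.22, limma adjusted p 0.264). ASPN, a small leucine-rich proteoglycan, went from 108 and 111 to 222 and 228 units, a log2FC of 1.03 (limma adjusted p 0.27). LOX, which cross-links collagen, went from 206 and 273 to 443 and 512 units, a log2FC of 1.004 (limma adjusted p 0.314). Without HS replicate 1 the log2FC was 1.11 for CTHRC1, 1.01 for ASPN and 0.80 for LOX. Resting, activated and reference genes thus had medians of 0.74, 0.86 and 0.89, and differences between these lists were not tested.

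**Figure D4:**
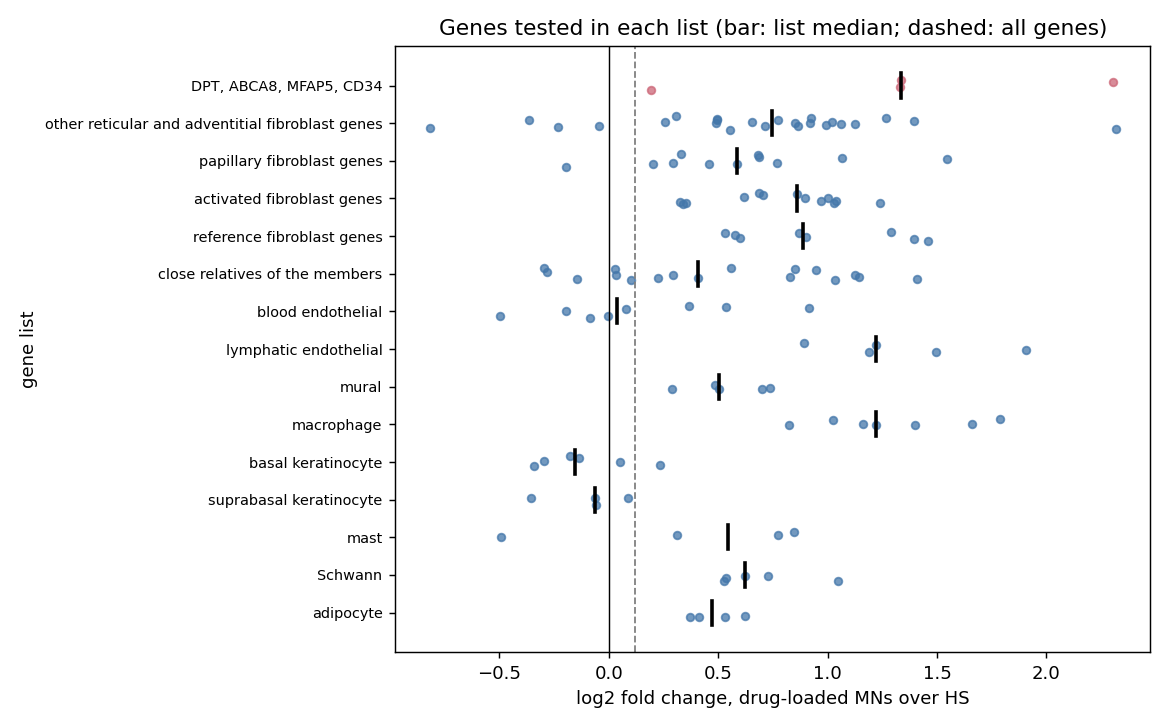
Log2 fold change of drug-loaded MNs over HS (x axis) of each tested gene in the lists named at the left, with bars at list medians and a dashed line at the median of all tested genes (0.12). The 4 fibroblast lists centred between 0.58 and 0.89, the blood endothelial list at 0.037 and both keratinocyte lists below 0, the suprabasal one turning to 0.018 and the blood endothelial one to -0.16 under quantile normalization.

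Close relatives of the named genes were read beside them. Of 29 relatives, 21 were in the table and 17 were tested, 14 were higher and 3 lower, and the median log2FC was 0.41, which went from 0.23 with no filter to 0.74 without drug-loaded MNs replicate 2 and was 0.64 without either HS library. None passed in limma, and 7 were higher at an unadjusted p below 0.05, against 7.26% of all genes. Without overlap 9 (52.9%) were higher, against 26.6% of all genes. FBLN2 and EFEMP1 belong to the reticular and adventitial list above as well, so they are counted in both. CRISPLD1, FBLN7 and CLEC3A counted as higher on the log2 scale, although their mean units were 0.96, 0.88 and 0.72 times the HS mean. Each was high in HS replicate 1 and low in HS replicate 2. ABCA6, a lipid transporter closely related to ABCA8, stood at 39.6 and 73.5 units in HS against 130 and 112 with drug-loaded MNs, a log2FC of 1.15 (SE 0.31, limma adjusted p 0.352). Both ABCA genes were lowest in HS replicate 1, without which the log2FC of ABCA6 was 0.71. How reads shared by such similar genes were assigned was not stated, so their separation is uncertain. ABCA5 overlapped between the groups, at 41.1 and 62.5 against 48.8 and 55.0 units, and its log2FC of 0.031 turned below 0 under median ratio scaling and quantile normalization. Among the fibulins EFEMP1 had a log2FC of 1.13 (limma adjusted p 0.495), with drug-loaded MNs libraries at 115 and 48.1 units. This log2FC was 0.50 without the higher of them, 1.75 without the lower and 1.45 without HS replicate 1. COLEC12, a scavenger receptor related to SCARA5, went from 9.83 and 29.5 to 52.9 and 42.1 units, a log2FC of 1.41 (limma adjusted p 0.422), which was 0.66 without HS replicate 1 and 2.15 without HS replicate 2.

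The pattern over the 4 libraries was compared with those of 5520 other genes with a symbol and a mean of at least 10 units, by the Euclidean distance between log2 values centred over the libraries. Nearest to DPT were PRSS35 (distance 0.13), CTHRC1 (0.16), FSTL1 (0.18), PENK (0.18) and PCDH18 (0.21). PRSS35, related to serine proteases, stood at 14.4 and 14.2 units in HS against 38.5 and 33.4 with drug-loaded MNs. MFAP5 lay at 0.52 from DPT, and 87 genes were nearer. Nearest to ABCA8 were NDRG1 (0.54), HGF (0.65), MMRN1 (0.69), PDGFD (0.70) and ND4L (0.71), so no gene came as close to ABCA8 as the 5 named genes came to DPT. NDRG1, a stress-responsive gene, went from 7.91 and 12.6 to 49.97 and 28.8 units. DPT and ABCA8 were 1.18 apart, and 29 genes were nearer to ABCA8 than DPT was. In the other direction, 1856 of the 5520 genes were nearer to DPT than ABCA8 was. With 4 libraries a small distance mainly reflects a similar fold change, and these distances carry no test.

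Markers of other cells in the suspension were read beside these genes, and 0 of them passed in limma. Over all genes, 26.6% were higher without overlap and 7.26% were higher at an unadjusted p below 0.05. Of the macrophage markers 7 of 7 tested were higher without overlap of the groups, and all 7 had an unadjusted p below 0.05 (median log2FC 1.22). Their sum was 120 to 130 units in HS and 283 to 286 in drug-loaded MNs. Lymphatic endothelial markers were higher without overlap in 5 of 5, 4 with an unadjusted p below 0.05 (median 1.22), with sums of 67.3 to 74.9 and 157 to 266 units. The medians were 0.98 for 2 T cell markers, 0.91 for 4 chondrocyte, 0.62 for 5 Schwann, 0.54 for 4 mast cell, 0.50 for 5 mural and 0.47 for 4 adipocyte markers. Basal and suprabasal keratinocyte markers stood at -0.16 (6 genes) and -0.062 (4 genes), and 5 dissociation response genes at -0.18. In the basal and suprabasal keratinocyte, Schwann and chondrocyte lists 0 markers separated the groups and 0 had an unadjusted p below 0.05. Several of these medians rested on 1 library. For chondrocyte markers it was 3.18 when HS replicate 1 was left out and -1.40 when HS replicate 2 was. In the same order, leaving out either HS library gave -0.54 and 0.025 for dissociation response genes, -0.50 and 0.20 for suprabasal keratinocyte markers, 0.0088 and 1.23 for mural markers and -0.040 and 1.19 for Schwann markers. Mast cell markers turned to -0.065 when HS replicate 2 was dropped and to -0.064 when drug-loaded MNs replicate 2 was, adipocyte markers went to 0.032 in the absence of drug-loaded MNs replicate 1, and basal keratinocyte markers turned to 0.29 in the absence of drug-loaded MNs replicate 2. For macrophages the median was at least 0.96 under every alternative, and for lymphatic endothelium at least 0.78. No marker of these lists that was in the table was at 0 in all libraries. Mural sums ran from 179 to 435 units in HS and from 359 to 446 in drug-loaded MNs, and suprabasal keratinocyte sums from 36817 to 52315 and from 31363 to 41238 units. The part of cell composition in the values of DPT, ABCA8 and MFAP5 was not tested.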

How the data were processed

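The 10x Genomics 3′ libraries were counted by the authors with Cell Ranger (2.1.1 in the submitters' processing notes, a different version in the study's reporting summary) and Seurat, with filters on cells and a correction for batch mentioned. The notes name the build mm10, although the gene identifiers are rabbit Ensembl ones, so the build is uncertain. The deposited values are relative expression scores. They are named for FPKM, but each library column sums to 10000, and how cells were combined or whether values had passed the batch correction was not stated. Doublet treatment was not given in the sources used here. Of low values up to 20 steps above the smallest, 18.6% to 21.7% lay within 0.1 of a whole step, so no reads could be recovered, and no interval for counting error was made.

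Values were rescaled to 1000000 per library. The 9348 genes averaging 1 unit or more were fitted as log2(value + 1) with limma 3.58.1 (lmFit, eBayes with trend; R 4.3.3) with no covariates. P-values were two-sided and adjusted by the Benjamini-Hochberg method over all tested genes. Fold changes on this scale understate those of low genes. The design had assumed this unit. The fit was tested on simulated data. The table had a symbol for 10207 genes and none for 3706, and genes were matched by symbol. The genes, gene lists and alternatives were chosen with earlier results of these data known. Besides the named genes, the text names up to 3 genes per fibroblast or family list (largest absolute fold change among those without overlap and with a mean of at least 10 units) and the 5 nearest genes to DPT and to ABCA8. PECAM1 and CDH5 were named as endothelial markers. ABCA5, VIT, VWF and TIE1 were added after their values were seen, and the alternatives for single named genes were chosen after seeing the data. No sequences were used here. Alternatives were 3 other scalings, 2 pseudocounts, 2 filters, 2 variance models, the replicate number as a block, and leaving out each library.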

Additional observations from a re-analysis of the deposited data

How the results depend on the processing

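The directions of DPT, ABCA8, MFAP5 and CD34 held under all 14 alternatives, but only the other scalings could have turned them. The filters, variance models and replicate block left these fold changes unchanged. The groups did not overlap, so no pseudocount and no left-out library could reverse these genes. Under median ratio scaling the log2 fold change was 0.051 for CD34 and 1.19 for MFAP5. DPT and ABCA8 were picked for their rise. Over all genes, 4 passed. This count was 0 with a pseudocount of 5, with no filter on low values, with quantile normalization, under median ratio scaling and for a total without abundant genes, and it was 1 for eBayes without trend. Leaving out 1 library gave 0 to 75, the single library then left in a group being taken to vary as much as the other pair. That count was 0 without HS replicate 1, 48 when drug-loaded MNs replicate 1 was dropped and 75 when drug-loaded MNs replicate 2 was. Under median ratio scaling the median of all genes moved from 0.12 to -0.01, and DPT had a log2 fold change of 1.19. The median of CD34 and MFAP5 was 0.62 under median ratio scaling, 0.67 under quantile normalization, and 0.51 with no filter, where SCARA5 entered it. The cause was not tested beyond this.

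With the replicate number as a block, 241 genes passed, and MFAP5 did (log2 fold change 1.33, limma adjusted p 0.00172, against 0.136 to 0.484 in the other alternatives that kept all libraries and 0.0566 to 0.362 with 1 left out). Libraries with the same number had nothing else in common in the labels: over the tested genes, the correlation of their deviations was 0.22. The block changed no call for CD34 (limma adjusted p 0.915). Relative to the reference fibroblast genes, the difference ranged from 0.20 to 0.57 for DPT, 0.92 to 1.79 for ABCA8, 0.20 to 0.55 for MFAP5 and -0.93 to -0.59 for CD34 over 8 alternatives. The blood endothelial median changed sign in 4 of 14 alternatives (-0.16 to 0.26). ABCA5 (log2 fold change 0.031) turned to -0.11 under median ratio scaling and -0.064 with quantile normalization, and dropping 1 library gave -0.27 to 0.33. Of 21 other named genes, 13 passed with the block and 0 under the other alternatives that kept all libraries. The number of libraries and the unknown depth limit these values.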
